A study of Mus musculus with 30 samples.

Results

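The livers of C57BL/6 (B6) mice fed an iron-enriched diet were compared with those of B6 mice fed an iron-balanced diet. The comparison used the 10 arrays whose labels carry these names, 5 mice on each diet, of the 30 arrays in the series. The enriched diet held 8.3 g of iron per kg and the balanced diet 200 mg per kg, and C57BL/6 is an inbred laboratory strain with no engineered allele named in the labels. The other arrays came from DBA/2 (D2) mice, a second inbred strain, on the same diets and from both strains on an iron-deficient diet. Total RNA was labelled with Cy3 and hybridised to whole mouse genome oligonucleotide arrays (Agilent 4x44K), 1 mouse per array. The labels used here state no sex, age, feeding period or sampling time.

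The liver measures the body's iron and answers with hepcidin, a peptide hormone that makes its target, the iron exporter ferroportin, leave the cell surface. BMP6, a secreted ligand made largely by the liver's endothelial cells, binds BMP receptors with hemojuvelin on hepatocytes. The receptors phosphorylate SMAD proteins, which switch on the hepcidin gene together with other targets such as Id1 and the inhibitory Smad7. The title of the series names Bmp6, Smad7, Id1 and Atoh8, which the study chose on these samples, so their changes are not independent evidence of direction.

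Hepcidin is encoded in the mouse by Hamp and a near-identical copy, Hamp2, and the upstream sequences of both are shown because the BMP pathway acts on Hamp there. The motif searched was GGCGCC, the core of a BMP-responsive element, which reads the same on both strands. In the RefSeq promoter table of build GRCm38.p6 the 250 bases before the start of 2931 of 27025 genes (10.8%) held it. Capitals mark the motif in the Hamp stretch at chr7:30944080-30944179 (minus strand) and the bases at the same place in the Hamp2 stretch at chr7:30924232-30924331 (minus strand).
Hamp: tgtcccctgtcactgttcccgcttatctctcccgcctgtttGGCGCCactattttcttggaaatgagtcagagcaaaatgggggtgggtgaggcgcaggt
Hamp2: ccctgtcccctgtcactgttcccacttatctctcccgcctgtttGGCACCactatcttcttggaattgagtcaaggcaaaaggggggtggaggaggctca
The motif of Hamp lay 109 to 104 bases before the start. After 20 bases that both stretches share, Hamp2 carried the substitution G4A, counted from 1 at the first base of the motif, and no GGCGCC in its 250 bases. Among the BMP target and feedback genes, 4 of the 8 with an entry held GGCGCC: Id2, Id4, Grem1 and Erfe. Grem1 and Erfe did not pass the filter on dim probes, so they have no result for the diet. Of the SMADs and their ubiquitin ligases 3 of 6 with an entry held it, Smad5, Smad9 and Smurf2, and of the BMP ligands 0 of 6. The Id4 stretch, at chr13:48260940-48260999 on the plus strand, is shown because Id4 was among the largest rises.
Id4: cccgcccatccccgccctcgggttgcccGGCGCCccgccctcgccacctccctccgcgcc
A match is a description of these letters and was not tested as a binding site. Neither the array probes' sequences nor a genome of the files' build were used here.

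The arrays gave 20332 genes after a filter on dim probes, and values below are log2 of the quantile-normalized signal. The share of probes well above background ran from 62.5% to 78.4% on the balanced arrays and from 68.2% to 76.7% on the enriched arrays, with means of 69.9% ± 5.89 (SD, n = 5) and 72.1% ± 3.78. The groups overlapped in this measure (exact permutation test, two-sided p = 0.516). Their median signals before normalization, 99.7 ± 11.8 and 103 ± 10.7, overlapped too (exact permutation test, two-sided p = 0.659). The 30 arrays of the series were spread over 10 slides and 3 scan days. Balanced mouse 3 was the only one of the 10 scanned on day 1, balanced mouse 1 and enriched mouse 2 were scanned on day 2, and the rest on day 3. On 4 slides both diets of B6 were present, 1 mouse of each. Mouse numbers follow the order of the records and pair no mice. Xist was at 3.92 to 4.53, near the floor of 3.92, in all 10 livers, while the Y-linked Ddx3y was at 11.57 to 11.86.

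Of the 20332 genes, 1239 (6.09%) passed an adjusted p of 0.05 between enriched and balanced B6 livers by limma. In the enriched mice 707 (3.48%) were higher and 532 (2.62%) lower, and 225 differed by at least 2-fold, 102 of them higher. The groups did not overlap for 1182 genes (5.81%), 676 higher (3.32%) and 506 lower (2.49%), and 808 of these were among the 1239. The median change over all genes was 0.03. When only the 10 arrays entered the fit, 361 genes passed, 347 of them among the 1239, and leaving out enriched mouse 5 gave 869.

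**Figure D1:**
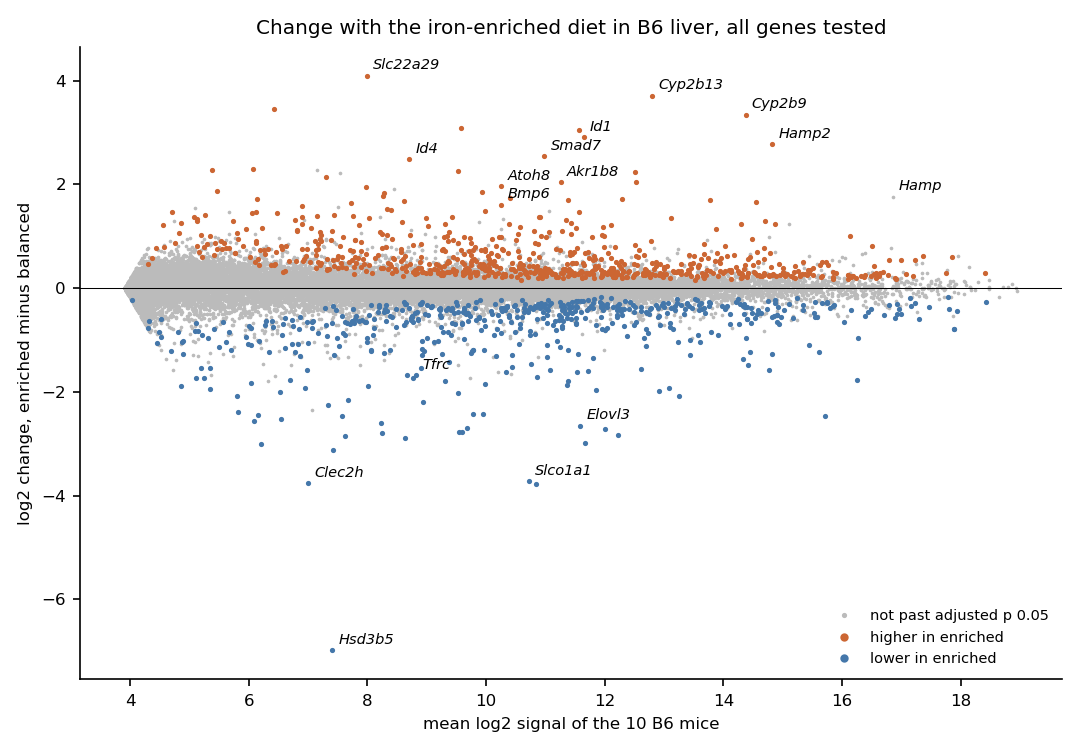
Each point is a gene, with its mean log2 signal over the 10 B6 mice on the horizontal axis and its log2 change, enriched minus balanced, on the vertical axis. Orange (707 genes) and blue (532 genes) points passed an adjusted p of 0.05, and Hsd3b5, at the floor in every enriched mouse, is drawn at its difference from the floor.

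Bmp6, the iron-responsive BMP ligand, was the gene with the smallest adjusted p among those of the series title. Its levels were 9.35, 9.57, 9.42, 9.46 and 9.42 in the balanced mice and 11.06, 11.02, 11.10, 10.90 and 11.20 in the enriched mice. All 5 enriched mice lay above all 5 balanced mice, and the spread within each diet was small. The rise was 1.61 ± 0.08, a 3.06-fold difference (limma, adjusted p = 9.15e-13), and its second probe rose by 1.63. The other 7 BMP-family ligands on the list did not pass the test. Bmp2, an endothelial ligand that also acts on hepcidin, came nearest with 0.46 ± 0.14 (adjusted p = 0.0531) and non-overlapping groups. It passed without balanced mouse 3 (adjusted p = 0.0401), and Bmp4 stood at -0.30 ± 0.16.

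Of 12 BMP receptors and iron sensors, Hfe alone passed, against 3.48% of all genes higher. It rose by 0.27 ± 0.07 (adjusted p = 0.0277), and its groups overlapped. Hfe lost its call without balanced mouse 2, 3 or 5 or enriched mouse 2 or 3 (adjusted p = 0.0695 to 0.0795), and its other probe passed at 0.45 (adjusted p = 0.00947). Hfe encodes the membrane protein that is lost in the common form of hereditary hemochromatosis. The type I receptors Bmpr1a (0.01 ± 0.07) and Acvr1 (-0.01 ± 0.07) and the type II receptor Bmpr2 (-0.03 ± 0.08) did not pass. Among the 8 SMADs and their ubiquitin ligases, 2 rose, both inhibitory, against 3.48% of all genes. Smad7, which blocks receptor signalling in a feedback loop, was at 9.00, 9.95, 9.75, 10.04 and 9.78 in the balanced mice and 11.86, 12.81, 12.20, 12.18 and 12.21 in the enriched mice. The groups were well apart, and enriched mouse 2 was the highest. Smad7 rose by 2.55 ± 0.22, or 5.85-fold (adjusted p = 2.35e-08), and Smad6 by 0.93 ± 0.16 (adjusted p = 0.000596). The signal-carrying Smad1 did not pass (0.33 ± 0.10, adjusted p = 0.0526), although its groups did not overlap, and its other probe passed (0.25, adjusted p = 0.0313). Smad5 (-0.12 ± 0.08) and Smad9 (0.50 ± 0.18) did not pass either.

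Of 12 tested targets and feedback regulators of BMP signalling, 8 rose and 1 fell, against 3.48% and 2.62% of all genes, with a median change of 1.12 against 0.03. The 1 that fell changed by -1.19 and was the only gene of the list with a negative change. The list holds Id1 and Atoh8 of the series title, so its direction is not independent of the study's choice. All 4 Id genes, which encode inhibitors of helix-loop-helix transcription factors, rose. Id1 was at 9.79, 10.64, 10.23, 10.23 and 10.03 in the balanced and 12.63, 14.18, 13.14, 12.77 and 12.76 in the enriched mice. No enriched mouse came within the balanced range, and enriched mouse 2 was again the highest. The Id1 rise was 2.91 ± 0.31, or 7.52-fold (adjusted p = 9.49e-07). Id4 was at 7.06, 7.21, 8.23, 7.13 and 7.64 in the balanced and 10.45, 10.45, 9.46, 9.67 and 9.68 in the enriched mice. These groups were also apart, and Id4 rose by 2.49 ± 0.19 (adjusted p = 5.26e-09) and on its second probe by 3.05. Id3 rose by 2.04 ± 0.31 (n = 5 and 4, since 1 enriched spot was unusable) and Id2 by 1.23 ± 0.23.

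Atoh8, a helix-loop-helix transcription factor, was at 9.19, 9.37, 9.83, 8.99 and 8.98 in the balanced and 11.49, 11.42, 10.91, 11.17 and 11.20 in the enriched mice. The lowest enriched mouse stood above the highest balanced mouse, and the rise was 1.97 ± 0.20 (adjusted p = 5.3e-07). Follistatin (Fst), a secreted binder of activins and BMPs, rose by 1.79 ± 0.25 (adjusted p = 5.2e-05). The decoy receptor Bambi rose by 1.01 ± 0.14 (adjusted p = 3.1e-05), and it was picked out after its values were seen.

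Hamp and Hamp2 are so alike that either probe may bind both transcripts, which was not measured, and how their signals divide is uncertain. Hamp was at 15.91, 15.23, 15.94, 16.82 and 15.95 in the balanced mice and 17.68, 17.66, 17.64, 17.84 and 17.85 in the enriched mice. Every enriched mouse was higher than every balanced mouse, and the enriched mice were nearly alike. The difference of 1.76 ± 0.85, or 3.39-fold, did not pass in the fit over all 6 groups (adjusted p = 0.274) but passed when only the 10 B6 arrays were fitted (adjusted p = 0.00792). Its SD was 0.57 in the balanced and 0.10 in the enriched mice, against 2.20 and 2.14 in the deficient B6 and D2 mice that share the first fit. Hamp2 was at 12.94, 13.24, 13.31, 13.38 and 14.29 in the balanced and 16.42, 16.52, 15.86, 16.10 and 16.15 in the enriched mice. The groups did not overlap, and Hamp2 rose by 2.78 ± 0.43, or 6.85-fold (adjusted p = 0.000155).

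Each title gene and Hamp2 kept its direction on all 4 slides that carried both diets. The difference on a slide ran from 1.44 to 1.67 for Bmp6 and from 2.09 to 3.81 for Smad7. For Id1 it ran from 2.12 to 4.38, for Atoh8 from 1.83 to 2.51 and for Hamp2 from 2.13 to 3.58. Within scan day 3, which held 3 balanced and 4 enriched mice, the changes were 1.58 for Bmp6, 2.19 for Smad7, 2.52 for Id1, 2.08 for Atoh8 and 2.50 for Hamp2, and all passed. Within scan day 2, with 1 mouse on each diet, they were 1.67, 3.81, 4.38, 2.23 and 3.58 in the same order.

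**Figure D2:**
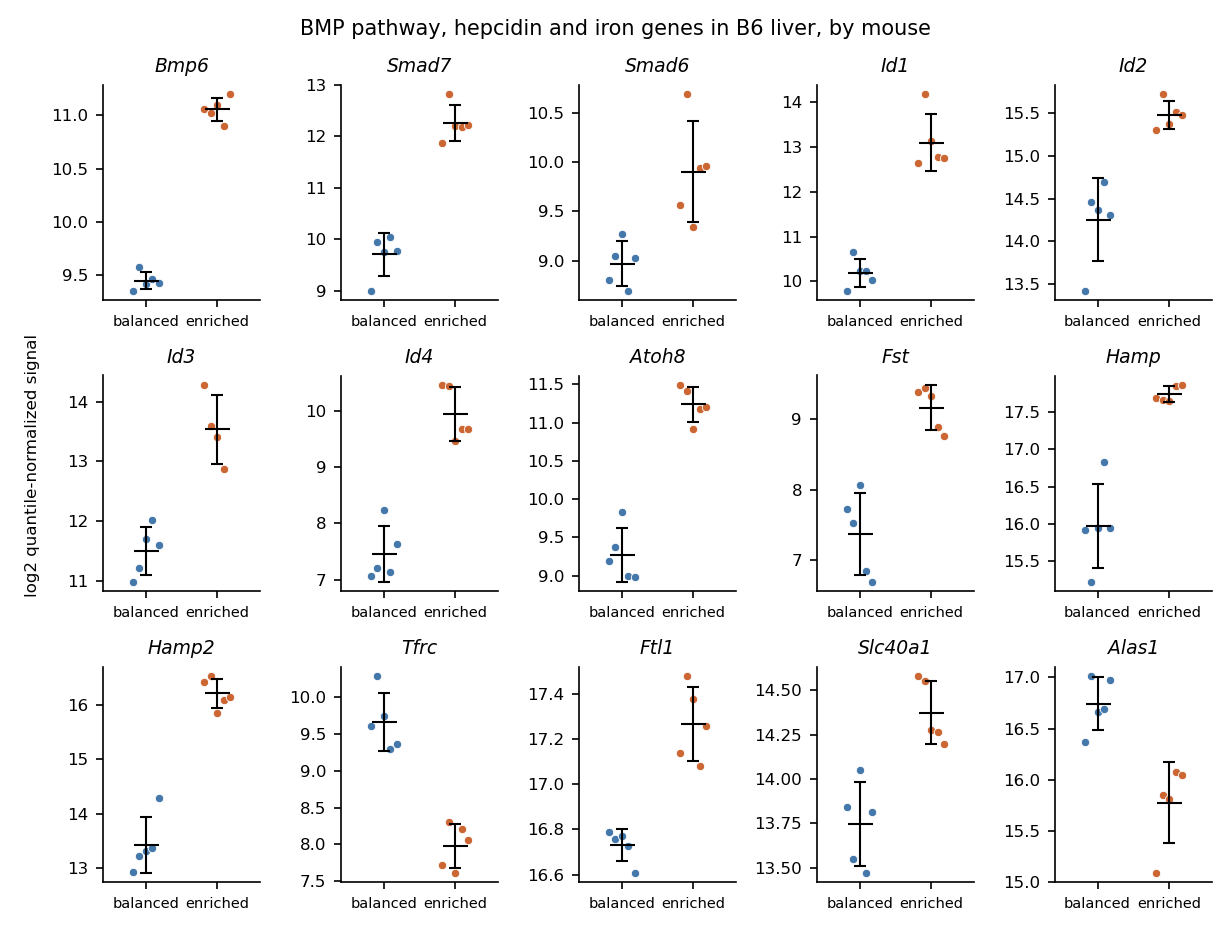
Log2 signal of 15 BMP, hepcidin and iron genes in each balanced (blue) and enriched (orange) B6 mouse, with the mean and SD as bars and a vertical scale of its own in each panel. The groups do not overlap in any of the 15 panels, and Bmp6 has all enriched mice at 10.90 or above and all balanced mice at 9.57 or below.

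Among 12 iron uptake genes 2 fell, against 2.62% of all genes, and none rose. The transferrin receptor Tfrc, whose messenger RNA is broken down when cells hold much iron, was at 9.61, 10.28, 9.74, 9.29 and 9.37 in the balanced and 7.72, 8.30, 7.62, 8.21 and 8.06 in the enriched mice. The diets did not overlap, and Tfrc fell by 1.67 ± 0.18 (adjusted p = 1.15e-06). The divalent metal transporter Slc11a2 fell by 0.75 ± 0.09 on its brightest probe, while its other probes gave -0.39 and -0.09. Transferrin itself (Trf) stood at -0.03 ± 0.07 (adjusted p = 0.91). Of 11 storage and export genes 2 rose, against 3.48% of all genes. The ferritin light chain Ftl1 rose by 0.54 ± 0.11 and ferroportin, Slc40a1, by 0.62 ± 0.13. The ferritin heavy chain Fth1 did not pass (0.12 ± 0.06, adjusted p = 0.268), although all 5 enriched mice lay above all 5 balanced mice.

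Few heme and iron-sulfur genes passed the test, where over all genes 3.48% were higher and 2.62% lower. Alas1, the first enzyme of heme synthesis, fell by 0.97 ± 0.26 (adjusted p = 0.0227), and the other 7 genes of its list did not pass. Alas1 lost its call without balanced mouse 2 or 5 or enriched mouse 1 (adjusted p = 0.0542 to 0.0772). The heme exporter Flvcr1 rose by 0.33 ± 0.08, while the heme-degrading Hmox1 did not pass (0.32 ± 0.14, adjusted p = 0.209). Of 15 iron-sulfur cluster genes the scaffold Iscu alone fell, by 0.20 ± 0.05. Alas2, the red-cell form of Alas1, was at 12.71, 12.08, 12.46, 12.87 and 12.29 in the balanced and 11.47, 11.32, 10.89, 11.09 and 10.91 in the enriched mice, and the groups did not overlap. It fell by 1.35 ± 0.17 (adjusted p = 1.09e-05), and the other 4 erythroid genes tested, Hba-a1 among them (-0.13 ± 0.22), did not pass. The summed signal of the 5 erythroid genes, Alas2 included, was 32865 to 57232 in the balanced and 26501 to 37427 in the enriched mice. The sum thus holds the Alas2 fall itself, and the part of erythroid cells in the Alas2 result was not tested.

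Targets of NRF2, the transcription factor that answers electrophiles and oxidants, rose in 12 of 24 tested genes, against 3.48% of all genes, and none fell. Their median change was 0.50 against 0.03 over all genes. Akr1b8, an aldo-keto reductase, was at 10.32, 10.37, 10.49, 10.01 and 9.97 in the balanced and 12.46, 12.46, 12.24, 11.73 and 12.50 in the enriched mice. Its groups did not overlap, and it rose by 2.04 ± 0.13 (adjusted p = 1.35e-10). The glutathione transferases Gsta2 (1.72 ± 0.26), Mgst3 (1.48 ± 0.18) and Gsta4 (1.09 ± 0.17) rose, as did the export pump Abcc4 (1.38 ± 0.13) and the quinone reductase Nqo1 (0.99 ± 0.23). Of the glutathione-synthesis subunits Gclc passed at 0.59 ± 0.18 (adjusted p = 0.047), and Gclm did not (0.03 ± 0.12). Gclc lost its call without balanced mouse 1, 2, 4 or 5 or enriched mouse 1, 2, 3 or 5 (adjusted p = 0.0515 to 0.15). When only the 10 B6 arrays were fitted, 6 of the 24 passed. None of 20 genes of superoxide and peroxide removal rose: catalase (Cat, -0.30 ± 0.07) and Prdx6 (-0.29 ± 0.08) fell, and Sod1 (0.07 ± 0.05) and Sod2 (0.02 ± 0.06) did not pass. Cat lost its call without enriched mouse 5 (adjusted p = 0.0545). Prdx6 lost its call without balanced mouse 3 or 4 or enriched mouse 3, 4 or 5 (adjusted p = 0.0575 to 0.0849). Other probes of Prdx6 stood at -0.18 (adjusted p = 0.892), -0.34 (adjusted p = 0.151) and -0.32 (adjusted p = 0.0389). Metallothionein Mt1 rose by 1.67 ± 0.40 (adjusted p = 0.00999) with overlapping groups, its other probe stood at 0.61, and Mt2 did not pass (1.24 ± 0.47).

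Many liver genes differ between male and female mice, and growth hormone, whose release is pulsed in males and steadier in females, sets most of these differences. Of 18 male-biased genes 10 fell and none rose, against 2.62% of all genes lower, with a median of -0.52. Of 19 female-biased genes 6 rose and none fell, against 3.48% of all genes higher, with a median of 0.81, and 13 did not pass. Within scan day 3, 8 male-biased genes fell, and 0 female-biased genes passed, with medians of -0.49 and 0.79. On the 4 slides that carried both diets, 2 and 0 passed.

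Hsd3b5, a steroid reductase of male liver, was at 9.69, 10.14, 11.50, 11.91 and 11.26 in the balanced mice. All 5 enriched mice lay at the floor of 3.92, and the software marked 2 of these 5 spots as above background. It was therefore at least 120-fold lower in the enriched mice (adjusted p = 7.65e-07), against the lowest signal measured above background on each array. Slco1a1, an organic anion uptake carrier, was at 12.11, 12.51, 12.97, 12.71 and 12.60 in the balanced and 8.38, 8.94, 9.30, 9.52 and 8.14 in the enriched mice. The groups were far apart, and Slco1a1 fell by 3.72 ± 0.39, or 13.2-fold (adjusted p = 7.49e-07). The fatty acid elongase Elovl3 fell by 2.65 ± 0.48 and the complement inhibitor Susd4 by 2.86 ± 0.53. Complement C6 fell by 1.79 ± 0.35. The oxysterol hydroxylase Cyp7b1 fell by 1.98 ± 0.58 (adjusted p = 0.0408). Its balanced mouse 4 stood at 16.04 against 12.70 to 14.20 in the others, and without that mouse the change was -1.45. Cyp7b1 lost its call without balanced mouse 1 or 4 or enriched mouse 1, 2, 3, 4 or 5 (adjusted p = 0.0658 to 0.136). Cyp4a12a did not pass on its brightest probe (-0.39 ± 0.13, adjusted p = 0.0842, or 0.0489 without enriched mouse 5), while its other probe gave -2.76 (adjusted p = 6.97e-07).

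Cyp2b13, a cytochrome P450 of female liver, was at 10.55, 12.62, 11.46, 8.22 and 11.85 in the balanced and 14.87, 14.85, 15.08, 13.75 and 14.71 in the enriched mice. The balanced mice spread over more than 4 log2 units, with mouse 4 the lowest, and all lay below the enriched mice. Cyp2b13 rose by 3.71 ± 0.74 (adjusted p = 0.00209) and its close relative Cyp2b9 by 3.35 ± 0.72 (adjusted p = 0.00419). Cross-hybridisation among these relatives was not measured. Without balanced mouse 4 the changes were 3.03 and 2.66, both past the threshold. The sulfotransferase Sult3a1 rose by 2.28 ± 0.38, with 3 of 5 balanced mice above background, and A1bg by 1.26 ± 0.35, with 4 of 5 balanced mice at or near the floor and 2 of the 5 above background. The flavin monooxygenase Fmo2 rose too (0.81 ± 0.17). A1bg lost its call without balanced mouse 1, 2, 4 or 5 or enriched mouse 2 or 3 (adjusted p = 0.0555 to 0.101).

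Of 18 growth hormone signalling genes 3 fell, against 2.62% of all genes. The receptor Ghr fell by 0.58 ± 0.10, the circulating IGF carrier Igfals by 0.89 ± 0.19 and Igfbp2 by 0.47 ± 0.13. Igfbp2 lost its call without balanced mouse 2 or 3 or enriched mouse 2 or 3 (adjusted p = 0.0541 to 0.0808). The kinase Jak2 (-0.10 ± 0.10) and Stat5a (0.13 ± 0.15) did not pass. None of the 5 sex-chromosome genes passed.

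**Figure D3:**
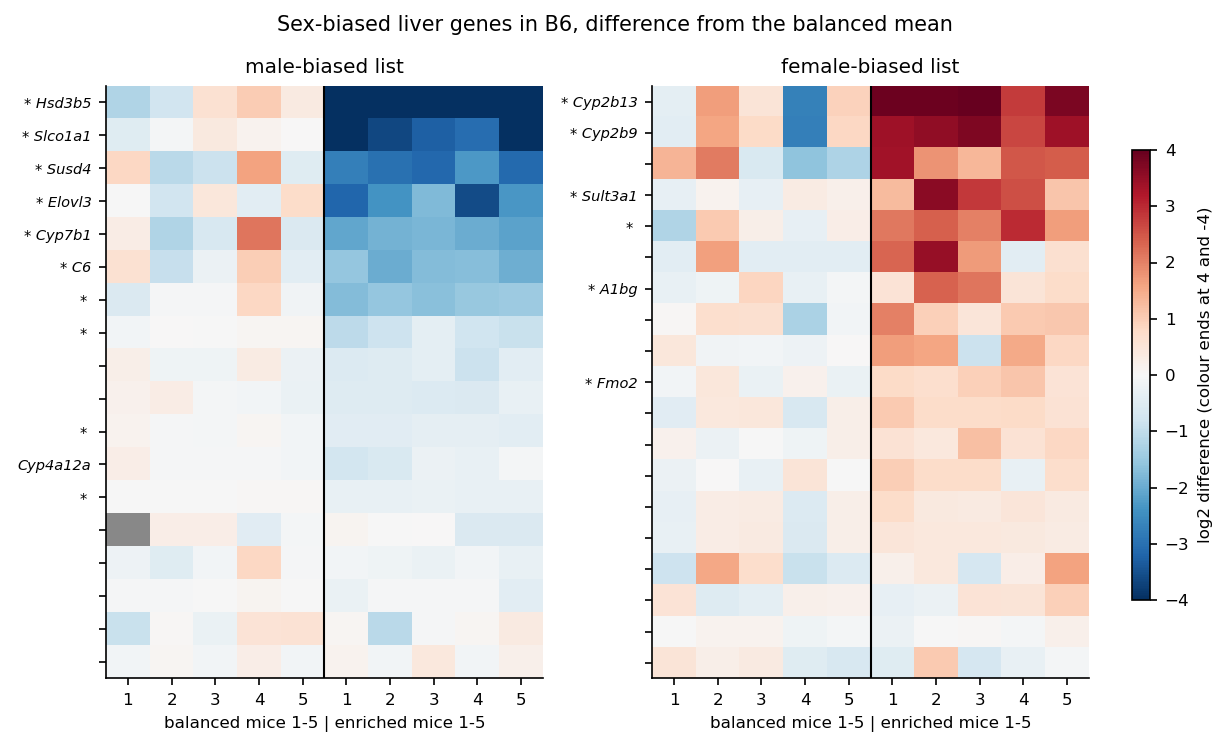
Rows are genes of the male-biased (18 genes) and female-biased (19 genes) lists and columns are the 10 B6 mice, with balanced mice left of the line and enriched mice right of it. Colour gives the log2 difference from the balanced mean, ending at 4 and -4, a grey cell has no usable spot, and only genes named in the text carry a label, and an asterisk marks genes that passed: 10 male-biased genes were lower and 6 female-biased genes higher in the enriched mice.

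Cyp2b10 led the list of genes driven by the drug-sensing receptors CAR and PXR. It was at 9.19, 11.03, 10.04, 9.30 and 10.66 in the balanced and 13.30, 13.21, 13.74, 12.14 and 13.04 in the enriched mice, without overlap. Cyp2b10 rose by 3.04 ± 0.51 (adjusted p = 0.000385) and on its other probe by 5.88. Cross-hybridisation with the other Cyp2b genes was not measured here either. Of the 15 list genes Cyp2c55 also rose (0.94 ± 0.17), while Cyp1a2 (-0.65 ± 0.13) and Alas1 fell. Over all genes 3.48% were higher and 2.62% lower. The receptors' own genes, Nr1i3 (-0.09 ± 0.10) and Nr1i2 (-0.01 ± 0.21), did not pass. Of 20 bile acid genes, the carrier Slco1a4 rose by 1.35 ± 0.22 and Slco1a1 and Cyp7b1 fell, against 3.48% of all genes higher and 2.62% lower. Cyp7a1, the rate-limiting enzyme of bile acid synthesis, stood at -0.06 ± 0.24 (adjusted p = 0.941).

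The 20 largest rises among genes with a symbol also held genes of no BMP, NRF2 or sex-biased list. Slc22a29, an organic anion carrier, headed them. It was at 4.46, 7.42, 7.17, 3.92 and 6.76 in the balanced mice, 3 of them above background, and at 10.35, 10.36, 9.91, 9.34 and 10.25 in the enriched mice. Balanced mice 1 and 4 were the lowest, and the groups did not overlap. Slc22a29 rose by 4.09 ± 0.75 (adjusted p = 0.000913), and the family member Slc22a26 by 3.08 ± 0.72. The plakophilin Pkp1 rose by 2.30 ± 0.27 and the transcription factor Gata3 by 1.87 ± 0.23, with 2 of 5 balanced mice above background. The guanylate cyclase receptor Gucy2c rose by 1.85 ± 0.24, Akr1b7 by 1.83 ± 0.30 and Sybu by 1.95 ± 0.36. The 20 rises were chosen for their size in these mice, so their separation is a description. The groups did not overlap in any of the 20, against 3.32% of all genes higher without overlap. Of 5 with another probe, that probe passed in the same direction in 5.

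Among the 20 largest falls, Clec2h, a C-type lectin, fell by 3.76 ± 0.63 and Tff3, a trefoil factor, by 2.79 ± 0.59. Hsd3b4, a relative of Hsd3b5, fell by 2.70 ± 0.52. The laminin chain Lama3 fell by 2.45 ± 0.31 on its brightest probe, while its other probe stood at 0.18, and Lad1 fell by 2.46 ± 0.29 and Mmd2 by 2.52 ± 0.29. These 20 were also chosen for their size in these mice, so their separation is a description. The groups did not overlap in 19 of these 20, against 2.49% of all genes lower without overlap. Of 4 with another probe, that probe passed in the same direction in 1. In 16 of the 20 genes balanced mouse 4 was the highest of the balanced mice. Armcx6 was at 13.26, 12.17, 11.83, 15.13 and 13.43 in the balanced and 10.12, 9.47, 10.57, 10.34 and 10.35 in the enriched mice, and balanced mouse 4 stood clear of the rest. It fell by 2.99 ± 0.55, and by 2.50 without that mouse. The same mouse was highest for Crxos (-3.11 ± 0.51), Prss27 (-3.01 ± 0.59), the proton pump Atp12a (-2.89 ± 0.56), the melanocortin receptor Mc1r (-2.78 ± 0.63), the defensin Defb19 (-2.42 ± 0.50) and the sodium channel Scn2a (-2.39 ± 0.54). Without it each of these still passed. The probes named Olfr166 and Myh2 fell by 2.84 ± 0.69 and 2.59 ± 0.61, but the other probe of each stood at 0.30 and 0.17. Olfr1384 (-2.26 ± 0.57) lost its call without balanced mouse 4 (adjusted p = 0.0552).

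Of 19 interferon-stimulated genes 3 fell, against 2.62% of all genes, and none rose, with a median of -0.41. The count was 1 without balanced mouse 1 or 2 or enriched mouse 3, 1 with only the 10 B6 arrays fitted, and 11 without balanced mouse 4. Isg15, a ubiquitin-like protein, was at 9.74, 9.85, 9.46, 8.88 and 9.52 in the balanced and 8.36, 8.78, 8.34, 8.60 and 8.57 in the enriched mice. Balanced mouse 4 was the nearest to the enriched mice, which it did not overlap. Isg15 fell by 0.96 ± 0.23, Mx1 by 0.94 ± 0.25 and Ifit3 by 0.81 ± 0.22, and Ifit1 did not pass (-0.83 ± 0.28, adjusted p = 0.0747) but passed without balanced mouse 4 (adjusted p = 0.0294). Mx1 lost its call without balanced mouse 1, 2 or 3 or enriched mouse 3 (adjusted p = 0.059 to 0.082), and its other probe stood at -0.72 (adjusted p = 0.089). Ifit3 lost its call without balanced mouse 1, 2 or 5 or enriched mouse 3 or 5 (adjusted p = 0.0544 to 0.0735). The other probe of Ifit3 stood at -0.89 (adjusted p = 0.0294). Without balanced mouse 4, 11 of the 19 fell, with a median of -0.63. The interferon-response motif, GAAA and GAAA separated by any 2 bases, searched on both strands, was present upstream of 7 of the 15 list genes with an entry and of 3.46% of all genes. Its overlapping copies in the Isg15 stretch at chr4:156200857-156200916 (minus strand) are in capitals.
Isg15: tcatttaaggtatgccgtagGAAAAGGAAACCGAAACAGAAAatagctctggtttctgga

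Of 18 clock genes 4 fell, 1 rose and 13 did not pass, against 2.62% of all genes lower and 3.48% higher. The repressor Nr1d2 fell by 1.09 ± 0.18, Dbp by 1.61 ± 0.37, Tef by 0.68 ± 0.19 and Nr1d1 by 1.92 ± 0.52. Npas2, an activator of the clock, rose by 1.33 ± 0.28, and Arntl did not pass (1.01 ± 0.34, adjusted p = 0.0817) although its groups did not overlap. Dbp was at 11.76, 14.07, 12.43, 12.62 and 10.84 in the balanced and 10.78, 10.90, 10.66, 10.85 and 10.46 in the enriched mice, so the balanced mice differed among themselves far more than the enriched mice. Nr1d1 lost its call without balanced mouse 2 or 3 or enriched mouse 1 or 3 (adjusted p = 0.0706 to 0.0847). Tef lost its call without balanced mouse 2 or 3 or enriched mouse 1, 4 or 5 (adjusted p = 0.0505 to 0.0857). The other probes of Tef stood at -0.82 (adjusted p = 0.0165), -0.74 (adjusted p = 0.0287) and -1.05 (adjusted p = 0.074). Without balanced mouse 2 or 3 or enriched mouse 1 the list held 2 falls and 1 rise, and within scan day 3 it held 0 calls. The other probes of Nr1d1 stood at -0.22 and 0.23, and the labels used here state no sampling hour.

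Chaperones and proliferation genes changed in part. Of 22 unfolded protein response genes 3 fell, against 2.62% of all genes. Calr fell by 0.84 ± 0.13, Pdia6 by 0.49 ± 0.12 and Pdia4 by 0.41 ± 0.11, while the chaperone Hspa5 did not pass (-0.23 ± 0.16). Pdia6 lost its call without balanced mouse 5 or enriched mouse 5 (adjusted p = 0.0517 to 0.052). Other probes of Pdia6 stood at -0.51 (adjusted p = 0.016), -0.65 (adjusted p = 0.00097) and -0.35 (adjusted p = 0.864). Pdia4 lost its call without balanced mouse 2, 3 or 5 or enriched mouse 5 (adjusted p = 0.0588 to 0.109). Of 23 cell cycle genes 2 rose, against 3.48% of all genes. Cyclin D1 (Ccnd1) rose by 1.37 ± 0.32 and the cell cycle inhibitor Cdkn1a by 1.25 ± 0.38. Cdkn1a lost its call without balanced mouse 2, 3 or 4 or enriched mouse 2, 3, 4 or 5 (adjusted p = 0.0686 to 0.127). Few lipid genes passed: against 3.48% of all genes higher, the sterol reductase Tm7sf2 (0.50 ± 0.09) alone passed among 24 cholesterol genes. Their median was 0.43, or 0.22 without enriched mouse 5 and 0.23 within scan day 3. Pdk4, which restrains glucose oxidation, rose by 1.32 ± 0.26. Apolipoprotein Apoc3 rose by 0.54 ± 0.05 (adjusted p = 8.17e-08), with all 5 enriched mice above all balanced mice. None of 26 respiratory chain genes and none of 16 glucose genes passed.

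Markers of other liver cells were read for a shift in cell makeup, and in whole tissue fewer cells of a type and less RNA per cell cannot be told apart. None of 14 Kupffer cell genes, 16 stellate and fibrosis genes, 14 lymphocyte genes or 5 neutrophil and monocyte genes passed. The Kupffer marker Clec4f stood at -0.17 ± 0.14 and the collagen Col1a1 at 0.14 ± 0.37. Of 15 endothelial genes 2 rose, against 3.48% of all genes. Stab1 rose by 0.38 ± 0.10 and Lyve1 by 0.69 ± 0.21, and Stab2 did not pass (-0.02 ± 0.14). Stab1 lost its call without balanced mouse 4 or enriched mouse 2 (adjusted p = 0.0642 to 0.0706), and its other probe stood at 0.25 (adjusted p = 0.281). Lyve1 lost its call without balanced mouse 1, 2, 3 or 4 or enriched mouse 1, 2, 3 or 4 (adjusted p = 0.0512 to 0.153). The other probe of Lyve1 stood at 0.65 (adjusted p = 0.124). The summed signal of the endothelial list ran from 42966 to 52672 in the balanced and from 52836 to 59484 in the enriched mice, and its part in the Bmp6 result was not tested. Of 6 bile duct genes the keratin Krt19 rose by 0.72 ± 0.17, against 3.48% of all genes, and the other 5 did not pass. Of 7 hepatocyte genes Apoa1, an apolipoprotein, fell by 0.34 ± 0.10, against 2.62% of all genes, and the other 6 did not pass. Apoa1 lost its call without balanced mouse 1, 2, 3 or 5 or enriched mouse 1, 2, 3 or 4 (adjusted p = 0.0544 to 0.11). Of 15 zonation genes 3 fell, against 2.62% of all genes: the central-vein genes Glul (-0.56 ± 0.15), Rhbg (-1.25 ± 0.22) and Slc1a2 (-0.87 ± 0.18). Glul's other probe stood at 0.14. The other probes of Slc1a2 stood at -0.38, -0.51 and -0.36, and none of them passed. Glul lost its call without balanced mouse 3 or enriched mouse 3 (adjusted p = 0.0538 to 0.0653). Axin2 (0.28 ± 0.23) and Lgr5 (0.11 ± 0.23) did not pass.

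**Figure D4:**
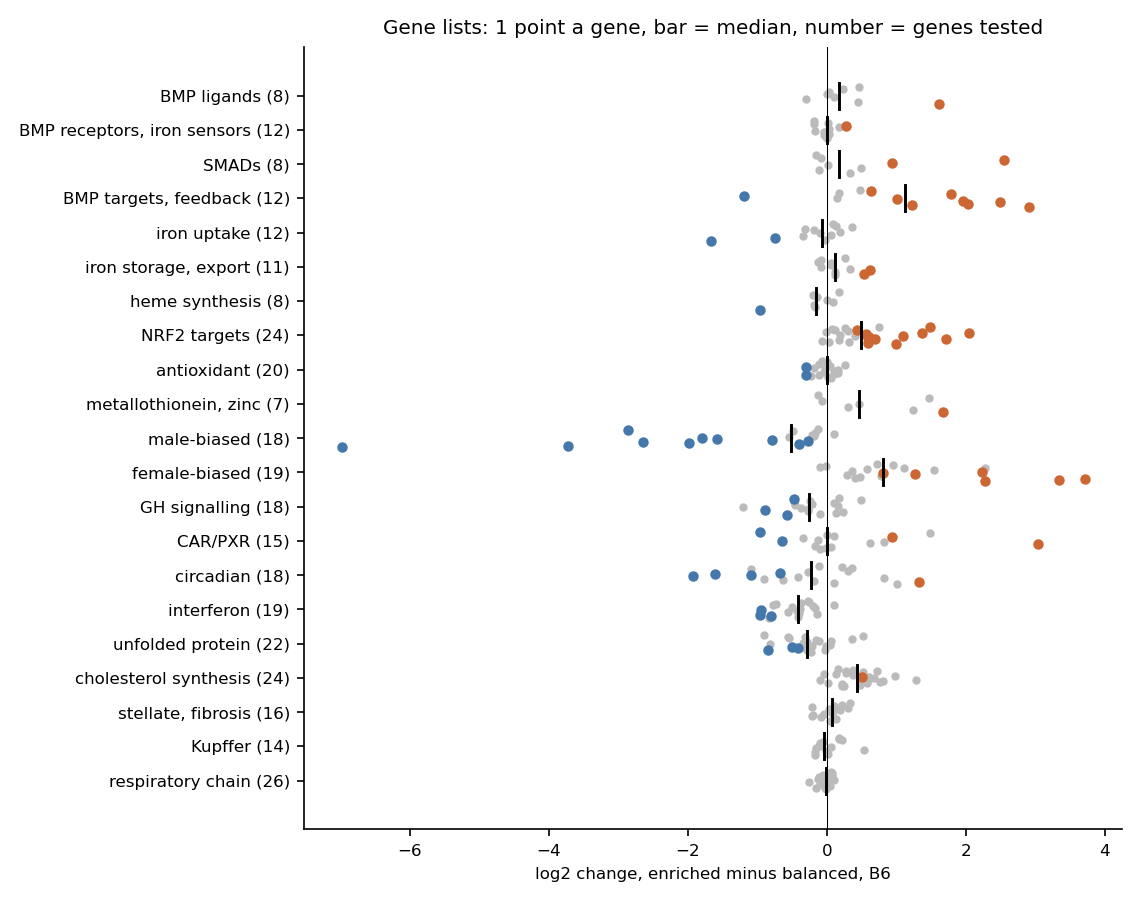
Each point is a gene of the list named on the left, placed at its log2 change, enriched minus balanced, in B6. Coloured points passed an adjusted p of 0.05 (orange higher, blue lower) and the bar is the list's median: 1.12 for BMP targets, -0.52 for male-biased and 0.81 for female-biased genes.

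D2 mice on the same diets served to show where B6 differed. Enriched D2 mice 4 and 5, scanned on day 1, had median signals before normalization of 62.7 and 61.2, the lowest of the series. The other enriched D2 mice had 83.4 to 105 and the balanced ones 82.8 to 94.9, of which mouse 4 alone was scanned on day 1. The part of these signals and scan days in the strain difference was not tested. In D2, 19 genes (0.0934%) passed between the enriched and balanced diets, and the difference of the effects (D2 minus B6) passed for 241 genes (1.19%). For 209 of these the B6 change itself passed, 122 higher and 87 lower, and for 216 it was larger in B6. Bmp6 rose by 1.61 ± 0.08 in B6 and by 0.80 ± 0.08 in D2, a difference of -0.81 ± 0.12 (adjusted p = 0.00052). Smad7 (-1.66 ± 0.31, adjusted p = 0.00539) and Id4 (-2.30 ± 0.27, adjusted p = 6.76e-05) also rose more in B6. For Id1 (-1.10 ± 0.44, adjusted p = 0.272), Atoh8 (-0.88 ± 0.28, adjusted p = 0.138) and Hamp2 (-1.16 ± 0.61, adjusted p = 0.474) the difference did not pass. Nor did it for Tfrc, which fell by 1.29 ± 0.18 in D2. In B6 mice on the deficient diet, compared with the same balanced mice, Bmp6 fell by 1.20 ± 0.08, Atoh8 by 0.96 ± 0.20 and Hamp2 by 6.03 ± 0.43.

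The 10 smallest adjusted p of the strain difference, with ties for the last places, belonged to Id4, Mcm10, a transcript known only by an identifier, Srd5a1, C9, Chpf, Alas2, Bmp6, Slco1a1, Abcc4 and Gata3. C9, the last component of the membrane attack complex, was at 13.04, 12.18, 12.88, 13.30 and 12.72 in the balanced and 11.38, 11.02, 10.92, 10.72 and 10.29 in the enriched B6 mice, without overlap. It fell by 1.96 ± 0.23 in B6 and stood at 0.33 ± 0.23 in D2. The steroid reductase Srd5a1 fell by 2.07 ± 0.22 and stood at 0.05 ± 0.21 in D2. Chpf, a chondroitin polymerising factor, rose by 1.09 ± 0.12 in B6 and stood at -0.08 ± 0.11 in D2. The single probe named Mcm10 fell by 1.92 ± 0.15 in B6 and stood at -0.09 ± 0.15 in D2. Slco1a1 stood at 0.04 ± 0.39 and Abcc4 at 0.12 ± 0.13 in D2. Of the male-biased list, the difference passed for 8 of 18 genes, and of the NRF2 list for 4 of 24, against 1.19% of all genes.

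**Figure D5:**
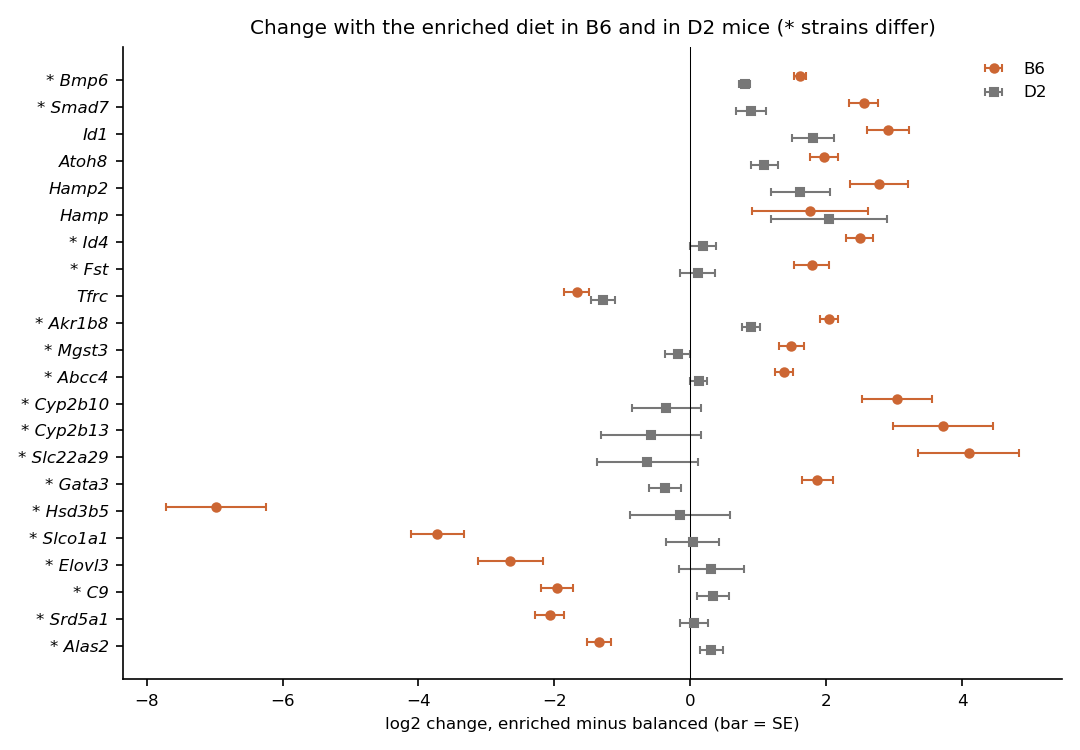
Log2 change, enriched minus balanced, of 22 genes in B6 (orange circles) and D2 mice (grey squares), with the standard error as bars, 5 mice in each group. An asterisk marks genes whose change differed between strains at an adjusted p of 0.05, among them Bmp6 at 1.61 in B6 and 0.80 in D2.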

How the data were processed

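Liver RNA of 5 balanced and 5 enriched B6 mice, 1 mouse per array, was taken from a series of 30 1-colour arrays. The deposited intensity values are the scanner software's processed signals, already background-corrected, per the file headers (Agilent Feature Extraction 9.1.3.1). Here they were quantile-normalized, raised to a floor of 15.1 and put on a log2 scale. Probes well above background on at least 3 arrays of each strain were kept, and the brightest probe stood for its gene. Probe names were updated through RefSeq tables of GRCm38.p6: of 41174 probes 22951 matched by accession, 6659 by symbol and 3109 by synonym, and 8455 kept the file's name.

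limma 3.58.1 (R 4.3.3) fitted 6 group means over all 30 arrays, with Benjamini-Hochberg adjustment over 20332 genes at 0.05. A change is log2, enriched minus balanced, ± SE, and a level is given per mouse. The fit was tested on simulated data for B6 over 20332 genes with 200 of them changed. It recovered 97.5% of rises of 2 log2 units, 65% of rises of 1 and 45% of rises of 0.5. Of falls of 1 and of 0.5 it recovered 75% and 55%, and 6.9% of its calls in the simulation were false. The share of false calls on the real arrays was not tested. Each mouse has its own animal code in the labels, so p-values rest on the spread between mice. That spread was pooled over all 6 groups, D2 and deficient mice included, and the main fit held no term for slide or scan day.

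Named were the 20 largest rises and the 20 largest falls, excluding clone, locus and probe names, as well as the title and hepcidin genes, the first 3 of each of 43 gene lists with up to 6 of its passing genes, and the 10 smallest adjusted p of the strain difference. Some items are not reported here. The comparison and the lists were chosen with earlier results of these data known. Alternatives covered the arrays fitted, slide, scan day, normalization, background, filter, probe choice, variance model and each mouse left out, and 1 fit, on the 4 slides that carry both diets, was added after seeing the data.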

Additional observations from a re-analysis of the deposited data

Results flagged for a closer look

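In 15 of 280 groups of 5 mice checked, for the 140 genes named, 1 mouse stood apart from the rest by a gap of over 0.71 of the group's range. Chance gives about 1 in 20 such groups. Among balanced mice, mouse 1 was low for Smad7 (9.00) and high for Cyp4a12a (16.32). Mouse 3 was high for A1bg (5.08) and Glul (15.45). Mouse 4 was low for Mx1 (5.22). Among enriched mice, mouse 1 was low for Alas1 (15.09) and high for Cyp2c55 (8.25) and Cyp7a1 (14.48). Mouse 2 was high for Nqo1 (11.17) and Rhbg (9.48), and mouse 4 was low for Cyp2b13 (13.75). Mouse 5 was low for both metallothioneins, Mt1 (14.37) and Mt2 (14.48), and for C8b (12.95) and Pdia4 (12.28).

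For 44 named genes the diet's effect differed between strains, by limma's test of the difference (D2 minus B6) at an adjusted p of 0.05. Among BMP pathway genes the values were -0.81 for Bmp6, -1.66 for Smad7, -2.30 for Id4, -1.68 for Fst and -1.07 for Bambi. Among NRF2 targets and related enzymes they were -1.25 for Abcc4, -1.15 for Akr1b8, -2.29 for Akr1b7, -0.84 for Akr1b3, -1.08 for Gsta4, -0.82 for Gstm5 and -1.67 for Mgst3. Male-biased and complement genes that fell in B6 gave 6.83 for Hsd3b5, whose enriched B6 mice all lie at the floor, 3.76 for Slco1a1, 2.91 for Susd4, 2.95 for Elovl3, 1.90 for Mup5, 2.15 for C6, 2.29 for C9, 1.44 for C8a, 1.03 for C8b and 0.52 for Hc. Genes of drug and steroid handling gave -4.29 for Cyp2b13, -3.40 for Cyp2b10, -1.10 for Cyp2c55, -2.44 for Sult3a1, -4.73 for Slc22a29, -1.31 for Slco1a4 and 2.12 for Srd5a1. The rest were -2.24 for Gata3, -1.90 for Pkp1, -2.49 for Sybu, -1.18 for Chpf, -1.07 for Krt19, -1.18 for Lyve1, -0.37 for Apoc3, 1.66 for Alas2, 0.65 for Ghr, 1.15 for Nr1d2, 1.82 for Mcm10, 3.07 for Armcx6, 3.03 for Crxos, 2.73 for Lad1 and 2.51 for Lama3.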

How the results depend on the processing

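Across the settings tried, the count of genes passing in B6 moved from 1239 to 361 with only the 10 B6 arrays fitted, to 713 with no normalization between arrays, to 315 within scan day 3 and to 23 within scan day 2, where each diet had 1 mouse and the lone mouse was assumed to vary like the other groups. It was 34 on the 4 slides that carry both diets with slide as a block, 30 of them among the 1239. Slide as a block over all arrays gave 1821 and scan day as a block 1697, 1107 and 1209 of them shared. The other normalizations, filters, probe choices and variance models gave 1089 to 1388, and leaving out 1 mouse gave 869 to 1187. The count for the strain difference moved from 241 to 370 with scan day as a block and to 921 with no normalization, and leaving out 1 B6 mouse gave 168 to 297. With 1 mouse left out the gap in probes above background was 0.400 to 4.38 percentage points and in median signal 0.462 to 7.25.

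None of the 105 named genes that passed reversed under any setting that gave a value. Of them 73 still passed with only the 10 B6 arrays, 58 within scan day 3, 104 with scan day as a block, 99 with slide as a block and 14 on the 4 slides, among them Bmp6, Atoh8, Id4, Hsd3b5 and Slco1a1. On those slides Smad7 stood at 2.57 (adjusted p = 0.0923) and Id1 at 2.91 (adjusted p = 0.0924). There 2 male-biased, 0 female-biased, 3 NRF2 and 2 BMP target genes passed. The cause of these shifts was not tested. The fits with fewer arrays also differed in the mice, slides and scan days they held. The mouse numbers follow the order of the records and pair no mice, so the 4 slides gave the only pairs and no block used the numbers. Low signals limit genes near the floor, such as Hsd3b5, Gata3 and Sult3a1, which have mice at or near it.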

Other observations

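Several gene families were read by symbol after their values had been seen, so their counts describe these mice and carry no test of the family. Close relatives within a family can share probe signal, which was not measured.

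For each count below, the shares over all genes were 2.62% lower and 3.48% higher. Of 7 genes of the 3-beta-hydroxysteroid dehydrogenase family, which reduce or oxidise steroids, 6 were lower in enriched B6 mice, with Hsd3b7 at -0.10 ± 0.10 the exception. Of 6 terminal complement genes, whose products form the pore of the membrane attack complex, 5 fell: C9 (-1.96 ± 0.23), C6 (-1.79 ± 0.35), C8a (-1.48 ± 0.17), C8b (-0.90 ± 0.18) and Hc, the gene of complement C5 (-0.39 ± 0.07). C8g stood at -0.14 ± 0.08. The strain difference passed for 5 of these 6 genes, against 1.19% of all genes. Of 4 major urinary protein genes 3 fell, the most for Mup5 (-1.77 ± 0.24), and of 7 Cyp2d genes 5 fell. Of 11 Gsta and Gstm glutathione transferase genes 6 rose, Gstm5 among them (0.80 ± 0.13), and 3 of 4 Akr1b genes rose, with Akr1b3 at 0.99 ± 0.09. Of 19 Slc22a carriers 2 rose and Slc22a15 fell (-0.56 ± 0.10).

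The first principal component over all genes held 32.7% of the variance and the second 22.2%. On the first the 3 arrays scanned on days 1 and 2 were the lowest, at -44.9, -41.4 and -22.6, and the 7 of day 3 ran from -6.14 to 49.8, with mice of both diets in each set. The second separated the diets, with every balanced mouse above 0 and every enriched mouse below 0.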
